A study of Macaca mulatta with 12 samples.

Results

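DRD1, DRD2 and DRD3 encode 3 of the dopamine receptors, and they are 3 of the 19708 gene rows in a table of raw transcript counts from single nuclei of the rhesus macaque (Macaca mulatta) amygdala. They were chosen by gene name, and their levels are described here across excitatory neurons, inhibitory neurons, astrocytes and the sub-clusters of each. The nuclei came from frozen, surgically removed amygdala whose labels give no genotype, treatment or age, and the 12 labelled samples (3 specimens with 4 libraries each) form 1 group. The study set out to sort amygdala cells into molecular types.

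Dopamine receptors are G protein-coupled receptors of a pair of families. The D1-like receptors (DRD1 and DRD5) couple to stimulatory G proteins and raise cyclic AMP, whereas the D2-like receptors (DRD2, DRD3 and DRD4) couple to inhibitory G proteins and lower it. The amygdala receives dopamine fibres from the midbrain, and its dopamine signalling is known for its part in fear and reward learning. Medium spiny neurons of the striatum are the best known cells with high levels of DRD1 or DRD2.

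The table held 26400 nuclei with a median of 5053.5 unique molecular identifiers (UMIs, 1 per captured transcript), and 24538 nuclei remained after presumed doublets were left out. Nuclei carried 3 barcode suffixes (barcode sets) with 9201, 8900 and 8299 nuclei, and no label ties a suffix to an animal. The pool therefore counts as 1 sample: there are no replicates, no test and no standard deviation, the intervals are exact 95% intervals of counting error only, and the 3 set values show only whether a direction recurred. Nuclei of different sets shared 68 barcode sequences, and 0 of those pairs had identical counts. Excitatory neurons numbered 11205 (median 7866 UMIs), inhibitory neurons 4118 (5636 UMIs) and astrocytes 6020 (1732 UMIs). Each class name stands for clusters that resemble that type by marker genes, and none of the excitatory markers was among the 10 leading genes of the excitatory class, which did include RYR3, a marker listed for astrocytes. The receptor genes and the dopamine-related lists were kept out of the clustering, so they had no part in forming the clusters.

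All 3 receptor transcripts were rare. DRD1 had 354 UMIs in all, DRD2 had 1173 and DRD3 had 569. These totals are not levels to be compared between genes, because capture at the 3′ end differs from gene to gene. Of the excitatory nuclei, 1112 (9.92%) held a UMI of at least 1 of the receptors, and of the inhibitory nuclei 438 (10.6%) did. A nucleus without a UMI is therefore not a nucleus shown to lack the receptor.

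As classes, excitatory neurons had lower summed levels of all 3 receptors than inhibitory neurons, by less than 2-fold in each case. Levels are given in CPM, the gene's UMIs in a class scaled to a fixed total of all UMIs of that class. DRD1 stood at 2.22 CPM (1.93 to 2.55) in excitatory neurons, with 1.93, 2.40 and 2.36 in the barcode sets, against 3.30 (2.63 to 4.10) in inhibitory neurons, with 2.91, 4.16 and 2.81. DRD2 stood at 8.18 CPM (7.62 to 8.78) in excitatory neurons, with 7.68, 8.56 and 8.33 in the sets, against 13.4 (11.98 to 14.9) in inhibitory neurons, with 15.7, 13.1 and 11.1. DRD3 stood at 4.08 CPM (3.68 to 4.50) in excitatory neurons, with 4.10, 3.80 and 4.35 in the sets, against 6.205 (5.26 to 7.27) in inhibitory neurons, with 5.48, 7.02 and 6.13. The excitatory value was the lower one in every set for every receptor, and the ranges over sets did not overlap. On the log2 scale the excitatory over inhibitory ratio was −0.57 (−0.95 to −0.18) for DRD1, −0.71 (−0.90 to −0.52) for DRD2 and −0.61 (−0.88 to −0.33) for DRD3. None reached 2-fold in summed CPM, a size that 8.62% of 7426 genes passed upward and 8.36% passed downward. Those genes are the measured ones kept out of the clustering, which leaves out the cell type markers.

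These class ratios changed without 1 large excitatory cluster, and those of DRD2 and DRD3 also with depth. The excitatory cluster highest in PROX1, a transcription factor of dentate granule cells in the hippocampus, held 5267 nuclei, and the labels do not say whether such cells lie in the tissue taken. Relative to the other excitatory neurons, it was low in DRD1 (0.620 against 2.99 CPM), low in DRD3 (0.947 against 5.58 CPM) and high in DRD2 (14.7 against 5.06 CPM). Without it, the excitatory over inhibitory log2 ratio was −0.14 (−0.52 to 0.25) for DRD1 and −0.15 (−0.43 to 0.13) for DRD3, both spanning 0, and −1.40 (−1.63 to −1.18) for DRD2. When each nucleus was thinned to 1000 UMIs, the log2 ratio of DRD2 was 0.15, so its direction at class level depended on how depth was treated. That of DRD3 was −0.96 after thinning, on 35 and 25 UMIs. Averaging CPM over nuclei gave −1.01 for DRD1, which is past 2-fold.

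**Figure D1:**
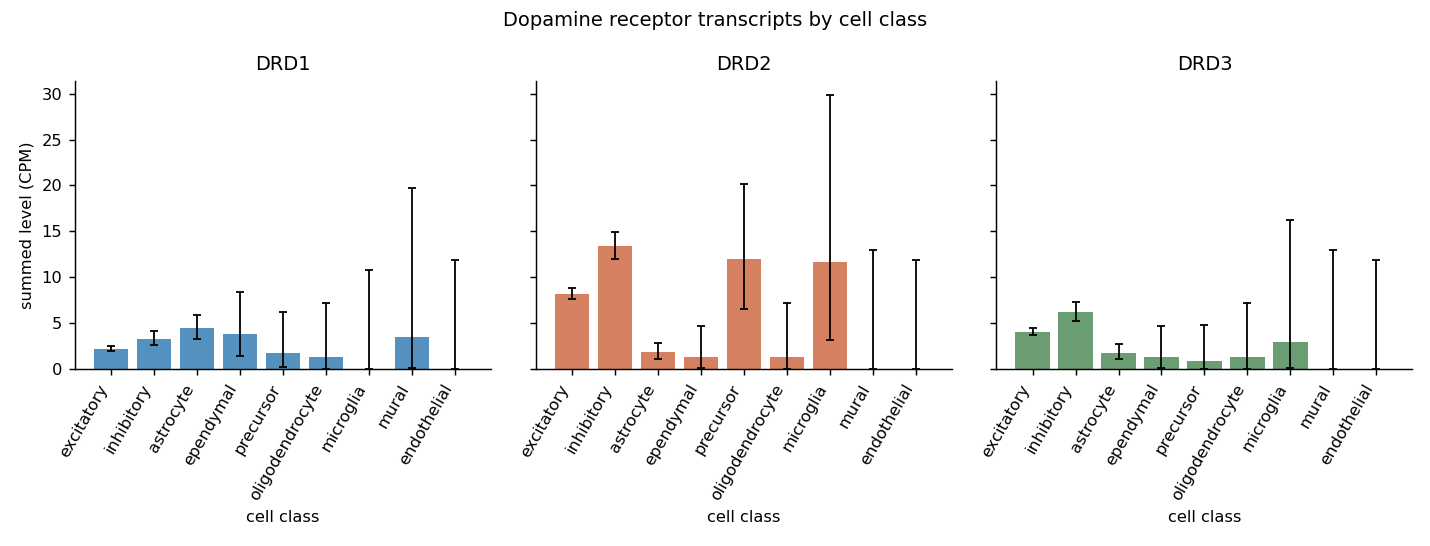
Summed level of DRD1, DRD2 and DRD3 (CPM, linear axis) in the 9 named cell classes, with bars for the level and lines for the exact 95% counting interval. Excitatory neurons lie below inhibitory neurons in each panel, astrocytes are highest among the 3 large classes for DRD1 only, and the intervals of microglia, mural and endothelial cells are wide because these classes hold few UMIs.

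Astrocytes, the glia that clear transmitter, held all 3 transcripts, DRD1 above and DRD2 and DRD3 below the excitatory level. DRD1 stood at 4.47 CPM (3.29 to 5.92) in astrocytes on 48 UMIs, with 4.36, 5.11 and 3.87 in the barcode sets, and the log2 ratio over excitatory neurons was 1.01 (0.52 to 1.46). DRD2 was lower in astrocytes than in excitatory neurons (1.86 against 8.18 CPM, log2 −2.14, −2.86 to −1.50). DRD3 was lower too (1.77 against 4.08 CPM, log2 −1.21, −1.95 to −0.54). DRD1 was thus the receptor whose astrocyte level was not below the neuronal one in any set.

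Under 1% of astrocytes held a UMI of any 1 receptor, at a median depth below that of the neurons. A DRD1 UMI was present in 0.797% of astrocytes (0.588 to 1.06%; median 1732 UMIs), against 0.228% of oligodendrocytes (0.00577 to 1.26%; median 1680 UMIs), which are not known for this receptor. Thinned to 1000 UMIs, a DRD1 UMI was present in 0.527% of 5500 astrocytes, 0.259% of 11192 excitatory and 0.365% of 4115 inhibitory nuclei. The thinned shares were 0.200%, 1.21% and 1.07% for DRD2 and 0.218%, 0.295% and 0.608% for DRD3, in the same order. The astrocyte interval of the thinned DRD1 share (0.353 to 0.756%) overlaps those of both neuronal classes. The DRD2 shares of astrocytes and oligodendrocytes were 0.316% and 0.228%, and the DRD3 shares were 0.299% and 0.228%. The oligodendrocyte shares rest on 1 nucleus each, and every astrocyte share lies inside the oligodendrocyte interval.

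Set against pooled oligodendrocytes, microglia, endothelial and mural cells (944 nuclei), the astrocyte log2 ratio was 1.93 (0.00172 to 5.02) for DRD1 on 48 and 2 UMIs, −0.65 (−2.11 to 1.12) for DRD2 and 0.60 (−1.46 to 3.74) for DRD3. None of the 3 had enough UMIs to count as measured. Of the 5547 measured genes kept out of the clustering, 11.1% were 2-fold or more higher in astrocytes and 11.2% were as much lower. Neuronal transcripts were present in astrocytes as well: their SNAP25 level was 38.2% of the higher neuronal class, their SLC17A7 level 53.5% and their RBFOX3 level 6.33%. The same percentage was 135 for DRD1, 13.9 for DRD2 and 28.5 for DRD3. An unnamed cluster of 578 shallow nuclei (median 557 UMIs) had DRD1 at 9.79 CPM (2.67 to 25.1) on 4 UMIs. The part of RNA from other cells in the astrocyte values was not tested.

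Among the astrocyte sub-clusters, DRD1 stood at 5.44 CPM (3.55 to 7.96) in A1, which was highest in GFAP, at 3.92 (2.39 to 6.05) in A2, highest in LUZP2, and at 2.33 (0.282 to 8.41) in A3, highest in TNC. The 3 intervals overlap, and the A1 over A2 log2 ratio of 0.47 spans 0 (−0.42 to 1.39). DRD1 in 3 equal groups of astrocytes by depth, shallow to deep, was 5.45, 2.88 and 5.12 CPM. DRD2 ranged from 1.16 to 2.09 CPM and DRD3 from 1.37 to 2.33 CPM over the same sub-clusters, on 10 UMIs or fewer each.

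The precursors of oligodendrocytes, glia that go on to make myelin, had a higher DRD2 level than mature oligodendrocytes, on few UMIs. The gene had 14 UMIs in 479 precursors, 12.02 CPM (6.57 to 20.2), with 12.1, 7.62 and 16.8 in the barcode sets. In 439 oligodendrocytes it had 1 UMI, 1.29 CPM (0.0327 to 7.19). The log2 ratio was 3.22 (0.50 to 8.62), although the intervals of the levels overlap. Microglia had DRD2 at 11.7 CPM (3.18 to 29.9) on 4 UMIs. The part of RNA from other cells in these values was not tested. DRD1 had 2 UMIs in precursors and 1 in oligodendrocytes, and DRD3 had 1 in each.

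Neurons were divided further into 14 excitatory (E1 to E14) and 12 inhibitory (I1 to I12) sub-clusters, each given with subtype markers that lead it. Together with A1 to A3 these are 29 sub-clusters, and each receptor had a different order over them.

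**Figure D2:**
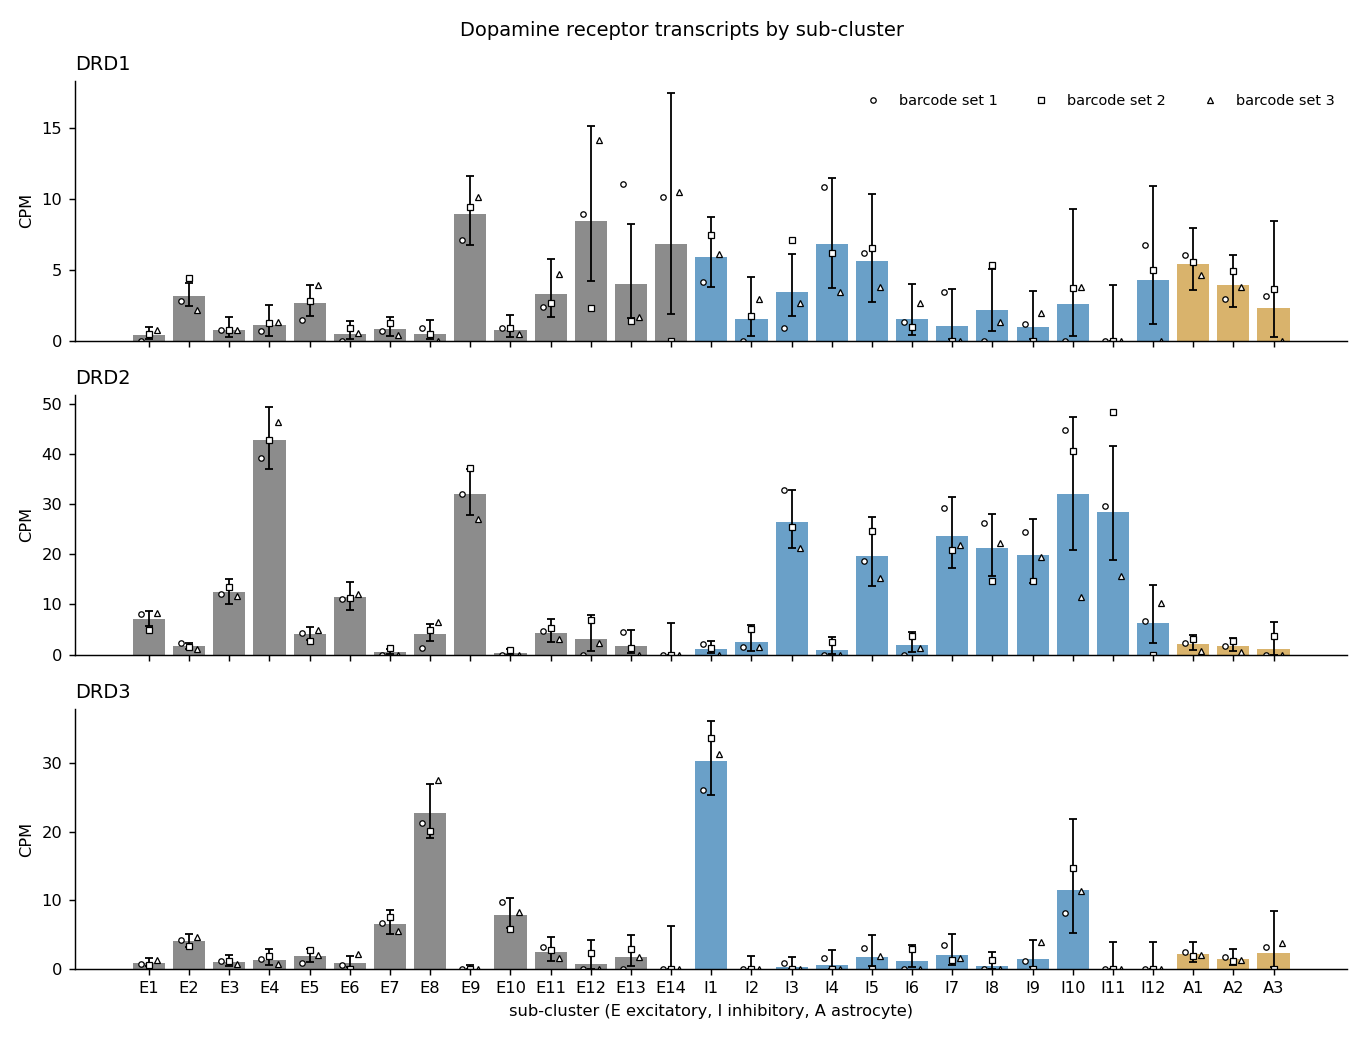
Level of DRD1, DRD2 and DRD3 (CPM, linear axes that differ between panels) in 14 excitatory, 12 inhibitory and 3 astrocyte sub-clusters. Bars give the pooled level, lines the exact 95% counting interval and small symbols the 3 barcode sets; DRD3 stands out in I1 and E8, DRD2 in E4, E9 and 7 inhibitory sub-clusters, and DRD1 has no single peak.

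DRD3 was the most unevenly spread of the receptors. In I1 (NOS1/LAMP5/LHX6), inhibitory neurons led by the nitric oxide synthase gene, DRD3 stood at 30.4 CPM (25.4 to 36.1), with 26.1, 33.8 and 31.4 in the barcode sets. In E8 (OPRM1/ST18/FEZF2), excitatory neurons led by the mu opioid receptor gene, it stood at 22.8 CPM (19.1 to 26.9), with 21.3, 20.1 and 27.6 in the sets. I1 was first and E8 second in every set, and the sets of the 2 sub-clusters overlap. Together they held 46.7% of all DRD3 UMIs in 5.51% of the nuclei.

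The other nuclei of each class were far lower. I1 was above the other inhibitory neurons by a log2 ratio of 4.65 (4.02 to 5.33), with 30.4 against 1.21 CPM. E8 was above the other excitatory neurons by 3.02 (2.71 to 3.33), with 22.8 against 2.80 CPM. A DRD3 UMI was present in 12.8% of I1 nuclei (94 of 736) and 15.6% of E8 nuclei (96 of 617), and 28 and 29 of these nuclei held 2 or more UMIs of it.

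Below them came I10 (NR2F2/CALB2/PROX1) at 11.5 CPM (5.28 to 21.9) on 9 UMIs, E10 (RGS14/MEIS2/NECTIN3) at 7.92 (5.89 to 10.4), E7 (NECTIN3/MEIS2/FEZF2) at 6.61 (5.02 to 8.55) and E2 (NECTIN3/RSPO2/TSHZ2) at 4.06 (3.22 to 5.06). Neighbours in this run overlap in their intervals, E7 and E2 only just. DRD3 had 0 UMIs in E9, E14, I2, I11 and I12. For the 565 deep nuclei of E9 the exact interval of a count of 0 ends at 0.598 CPM, whereas the other excitatory neurons stood at 4.36 CPM. In E14, I2, I11 and I12 the interval ends at 6.275, 1.90, 3.89 and 3.92 CPM, above 1.37 CPM, the median over sub-clusters. The whole DRD3 interval lay below that of I1 in 27 of the 29 sub-clusters.

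I4 (LAMP5/NDNF/BCL11B) shares LAMP5, a lysosome-associated membrane protein gene, with I1 and was compared with it for that reason. Closeness over all genes was not measured, and LHX6 stood at 207 CPM in I1 against 0.976 in I4. DRD3 had 129 UMIs in I1 and 1 in I4 (30.4 against 0.488 CPM, log2 5.96, 3.46 to 11.3). DRD1, in contrast, did not differ beyond counting error between them, with 5.89 CPM in I1 against 6.84 in I4 (log2 −0.21, −1.21 to 0.84). I1 was also low in DRD2, at 1.18 CPM against 15.9 in the other inhibitory neurons (log2 −3.75, −5.39 to −2.52).

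DRD3 was also described by marker UMIs in single nuclei, with markers that lead I1 and E8. Those markers were not kept out of the clustering, so this reading is not independent of the sub-clusters. Inhibitory nuclei with UMIs of both LAMP5 and LHX6, a transcription factor of interneurons born in the medial ganglionic eminence, had DRD3 at 32.5 CPM (24.5 to 42.4) in 254 nuclei. Those with LAMP5 alone had 11.2 CPM (6.63 to 17.7), those with LHX6 alone 5.10 (3.59 to 7.02) and those with neither 3.09 (2.24 to 4.14). This comparison was added after the data were seen. By set, the nuclei with both markers had 16.1, 43.9 and 40.1 CPM, so the first set lay well below the others and below the 18.8 CPM of its nuclei with LAMP5 alone.

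Excitatory nuclei were read in the same way by OPRM1 and ST18, a transcription factor gene, which lead E8. This comparison, too, was added after the data were seen. DRD3 stood at 21.3 CPM (17.9 to 25.2) in nuclei with UMIs of both, with 18.5, 21.1 and 24.8 in the sets. It stood at 3.48 CPM with OPRM1 alone, 2.19 with ST18 alone and 2.99 with neither. Neither marker alone went with a high level. ST18 is also a listed oligodendrocyte marker, and the 7 oligodendrocyte markers summed to 1178 CPM in E8 (1141 to 1223 over sets) against 165 in the other excitatory neurons (162 to 168). Of that sum ST18 itself gave 1074 against 73.1 CPM, and MBP stood at 52.7 against 48.4 CPM. The depth of E8 nuclei made little difference, with 21.5, 19.7 and 25.7 CPM in 3 equal depth groups from shallow to deep, whereas I1 had 24.6, 21.8 and 39.6.

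**Figure D3:**
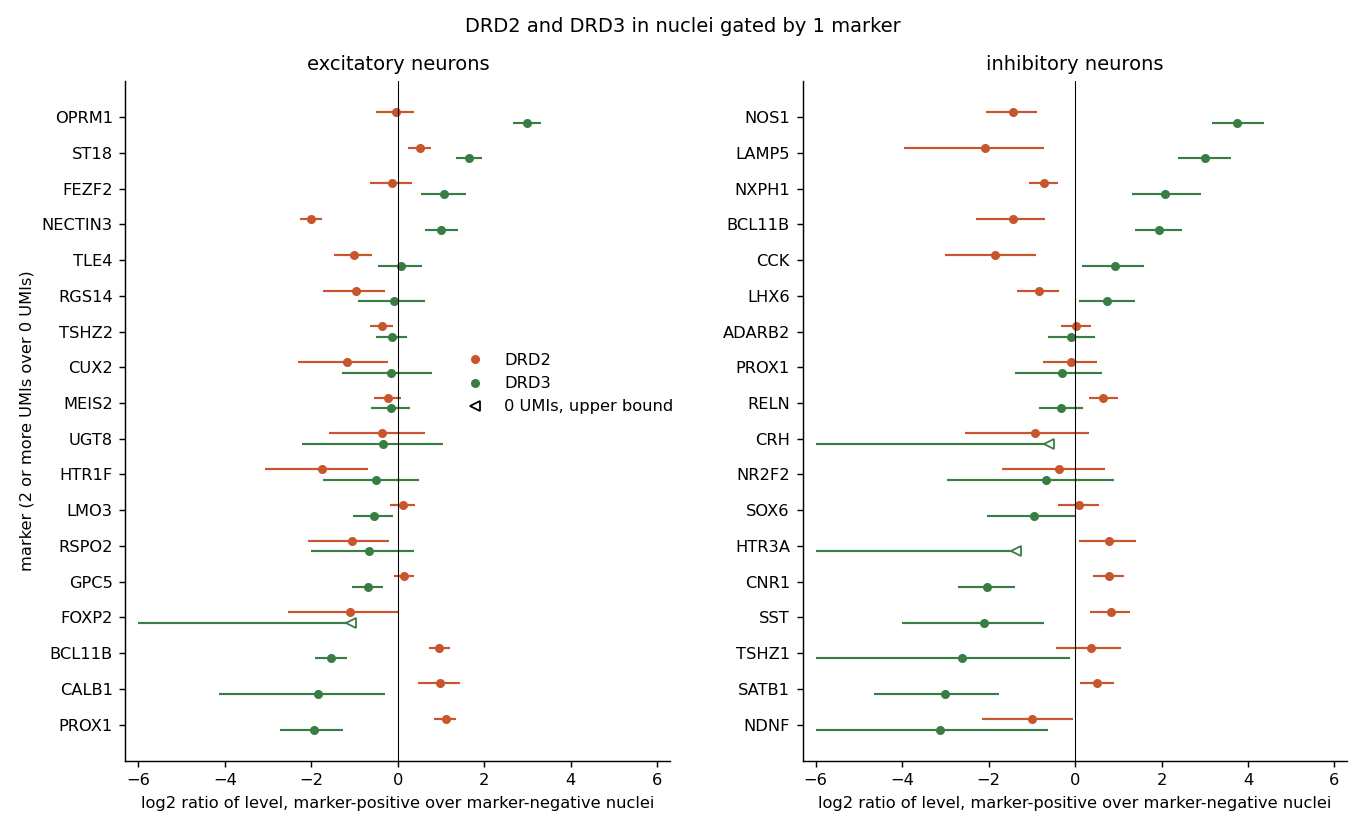
Log2 ratio of the DRD2 and DRD3 level between nuclei with 2 or more UMIs of a marker and nuclei with 0 UMIs of it, in excitatory (left) and inhibitory (right) neurons, with markers ordered by DRD3. Lines are exact 95% counting intervals, cut at −6, except at open arrows, where the marker-positive nuclei had 0 UMIs of DRD3. Each arrow is the ratio with that 0 set to 3 counts, and its line ends there. The exact upper limits are −0.79 for FOXP2, −0.29 for CRH and −1.05 for HTR3A. DRD3 is highest over OPRM1 and NOS1. Excitatory nuclei with PROX1 and inhibitory nuclei with CNR1 lie below 0 for DRD3 and above 0 for DRD2.

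Across single markers, DRD2 and DRD3 had opposite signs for 9 of 18 in excitatory and 14 of 18 in inhibitory neurons. The markers share nuclei, so counts of markers are not counts of separate observations. I1, which was low in DRD2, held 129 of the 154 DRD3 UMIs of inhibitory neurons. Where both intervals lay clear of 0, the signs were opposite for 4 and 10 markers and equal for 1 in each class, ST18 in excitatory (log2 0.51 for DRD2 and 1.65 for DRD3) and NDNF in inhibitory neurons (−0.997 and −3.12). Inhibitory nuclei with 2 or more UMIs of NOS1 had DRD3 at 24.0 CPM against 1.80 without it (log2 3.74, 3.16 to 4.36). Their DRD2 was 6.01 against 16.3 CPM (log2 −1.44, −2.06 to −0.88). Nuclei with CNR1, a cannabinoid receptor gene, had DRD3 at 2.53 against 10.3 CPM (log2 −2.03) and DRD2 at 17.8 against 10.4 CPM (log2 0.78). SATB1 showed the same pair of signs, with −3.01 for DRD3 and 0.50 for DRD2. BCL11B went with opposite signs in the classes: in excitatory nuclei DRD3 was lower (log2 −1.54) and in inhibitory nuclei it was higher (1.94). Depth was not matched in any of the single-marker comparisons. Median UMIs with and without the marker were 7787 and 5235 for SATB1 and 7502 and 9389 for BCL11B in excitatory nuclei. They were closer for NOS1, at 5889.5 and 5558.

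DRD2 was spread over more sub-clusters than DRD3. Its highest pooled level was in E4 (PROX1/CALB1/ST18), at 42.8 CPM (37.0 to 49.2), with 39.2, 42.7 and 46.2 in the barcode sets. E9 (MEIS2 and GPC5) followed at 32.1 CPM (27.8 to 36.9), with 31.9, 37.2 and 27.0 in the sets. The 2 pooled intervals do not overlap, and the sets of E4 all lie above those of E9. A DRD2 UMI was present in 15.1% of E4 nuclei and 25.1% of E9 nuclei, whose median depths were 4403.5 and 10835 UMIs. E4 and E9 together held 33.6% of DRD2 UMIs in 6.71% of nuclei.

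High DRD2 was also found in 7 inhibitory sub-clusters. I10 stood at 32.1 CPM (20.8 to 47.3), I11 (SOX6/SST/NPY) at 28.5 (18.8 to 41.4) and I3 (HTR3A/CNR1/RELN) at 26.5 (21.2 to 32.8). I7 (CNR1/VIP/CCK) stood at 23.6 CPM, I8 (SATB1/NXPH1/SST) at 21.2, I9 (NPY/SST/LHX6) at 19.9 and I5 (PROX1/ADARB2/HTR3A) at 19.7. The intervals of all 7 overlap one another, so no order holds among them, and they include cells led by somatostatin as well as cells led by CNR1 or HTR3A. The set values of I10 (44.8, 40.6 and 11.4) and I11 (29.7, 48.3 and 15.7) varied most, on 25 and 27 UMIs. Their intervals overlap that of E4, which was first in 1 of the 3 sets, with I10 first in set 1 and I11 in set 2, and without barcode set 3 the highest sub-cluster was I10 in place of E4.

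At the other end, I4 (0.976 CPM), I1 (1.18), I6 (LHX6/NXPH1/SOX6; 1.95) and I2 (CRH/CALB2/VIP; 2.58) held 2 to 5 UMIs of DRD2 each. I6 and I9 share LHX6, yet their intervals (0.632 to 4.54 and 14.3 to 27.0) do not overlap. Among excitatory neurons E10 had 0.310 CPM, E7 0.456 and E2 1.68, and these are the sub-clusters next to E8 in DRD3. E14 (HTR1F/TSHZ2/RSPO2) had 0 UMIs in 72 nuclei, with an interval that ends at 6.275 CPM.

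**Figure D4:**
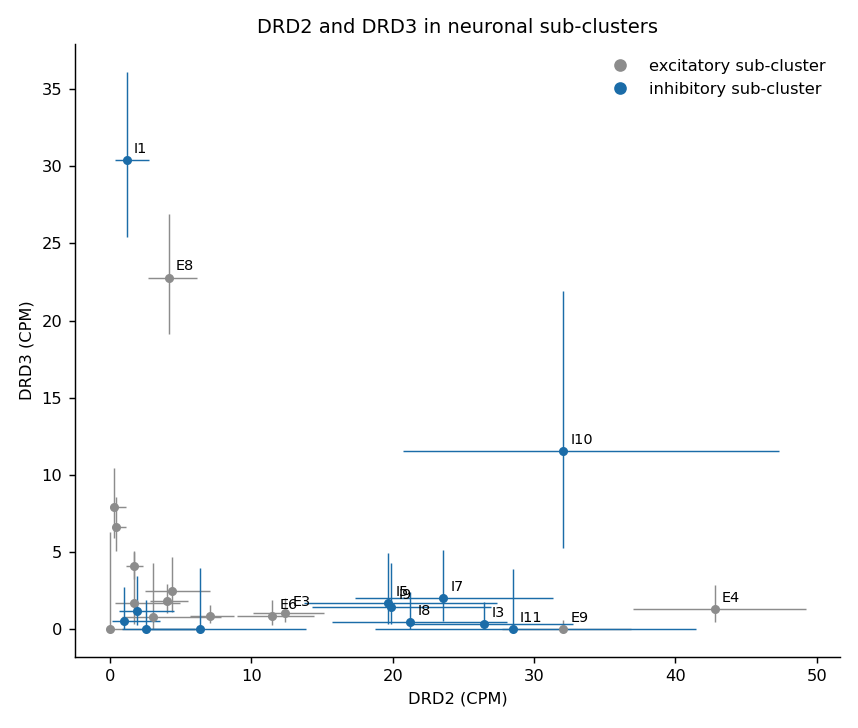
DRD2 level (horizontal, CPM) against DRD3 level (vertical) in the 26 neuronal sub-clusters, with exact 95% counting intervals; grey points are excitatory and blue points inhibitory. I1 is high in DRD3 and low in DRD2, E8 is high in DRD3 with DRD2 at 4.16 CPM, E4 and E9 are high in DRD2 and low in DRD3, and I10 is the sub-cluster above 10 CPM for both.

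Over the 29 sub-clusters the Pearson correlation of log2(CPM + 1) was −0.25 for DRD2 with DRD3, −0.24 for DRD1 with DRD2 and −0.13 for DRD1 with DRD3. These describe sub-clusters that share the same libraries and have few UMIs. E8, second in DRD3, had DRD2 at 4.16 CPM, the median over the sub-clusters. I10 was high in both, with DRD2 at 32.1 CPM and DRD3 at 11.5. In I10, 3 of 19 DRD2-positive nuclei held DRD3 (15.8%, 3.38 to 39.6%), against 4 of the 146 others (2.74%, 0.751 to 6.87%), with intervals that overlap.

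Within the cluster highest in PROX1, E4 stood out from the related E1, E3 and E6. DRD2 was at 42.8 CPM in E4 against 9.75 in the other 3 together (log2 2.13, 1.86 to 2.41). E3 stood at 12.4 CPM (10.1 to 15.1), E6 at 11.5 (8.96 to 14.5) and E1 at 7.07 (5.64 to 8.75). The level fell with depth in the whole cluster, with 24.3, 15.7 and 9.53 CPM in 3 equal depth groups from shallow to deep. E4 had a median of 4403.5 UMIs, against 5766 in the whole cluster. Inside E4 the groups had 51.1 (36.8 to 69.0), 45.8 (35.8 to 57.65) and 37.5 CPM (29.8 to 46.6), with intervals that overlap. E4 nuclei were shallower than the median excitatory nucleus and had a median doublet score of 0.0406, against 0.0454 for E1, E3 and E6 together and 0.0320 for all excitatory neurons. All 5 inhibitory markers were higher in E4, summing to 134 CPM (114 to 150 over sets) against 76.8 in E1, E3 and E6 together (72.9 to 81.7), and none was at 0. The sum was 40.7 in all other excitatory neurons (39.6 to 42.3). GAD1, which makes GABA, was at 79.7 CPM in E4, against 48.2 in E1, 45.9 in E3, 43.3 in E6 and 17.7 in all other excitatory neurons. The part of doublets or of inhibitory RNA in the DRD2 level of E4 was not tested.

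DRD1 had no sub-cluster that stood clear of the rest. E9 was highest at 8.91 CPM (6.71 to 11.6) on 55 UMIs, with 7.10, 9.42 and 10.1 in the barcode sets. E12 (FOXP2/TLE4/RORB) followed at 8.44 (4.21 to 15.1), with 8.96, 2.32 and 14.1 in the sets. I4 stood at 6.84 (3.74 to 11.5), E14 at 6.80 (1.85 to 17.4), I1 at 5.89 (3.81 to 8.70) and I5 at 5.62 (2.70 to 10.3). Every neighbouring pair in the order overlaps, and a different sub-cluster was first in each set: E13 in the first, E9 in the second and E12 in the third.

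The low end of DRD1 was better resolved. E1, E3, E4 and E6, all from the PROX1 cluster, stood between 0.421 and 1.09 CPM, and E7, E8 and E10 between 0.499 and 0.798. These intervals end below that of E9. The log2 ratio of E9 over the other excitatory neurons was 2.34 (1.87 to 2.80). In 18 of the 29 sub-clusters the whole interval lay below that of E9. The PROX1 cluster over the other excitatory neurons gave −2.27 (−3.03 to −1.59). By single markers, excitatory nuclei with 2 or more UMIs of ST18 had DRD1 at 0.475 against 2.82 CPM without it (log2 −2.57, −3.80 to −1.56).

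E9 was the neuronal sub-cluster in which DRD1 and DRD2 were both high and DRD3 had 0 UMIs. DRD2 was present in 26.4% (15.3 to 40.3%) of its nuclei with a DRD1 UMI and in 25.0% (21.3 to 29.0%) of those without. The shares differ by less than counting error. The first rests on 14 of 53 nuclei, so its wide interval does not resolve whether the 2 transcripts occur together or apart more often. Over 3 equal depth groups of E9 nuclei, shallow to deep, DRD1 stood at 5.73, 10.3 and 9.53 CPM and DRD2 at 33.7, 34.7 and 29.3. For E9 the 5 inhibitory markers summed to 34.2 CPM against 46.0 in the other excitatory neurons.

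Few nuclei held UMIs of more than 1 receptor: 32 of the 1112 receptor-positive excitatory nuclei and 13 of the 438 inhibitory ones. Among excitatory nuclei with DRD2, 1.73% (0.865 to 3.07%) held DRD3, against 2.76% (2.46 to 3.09%) of those without. Among inhibitory nuclei the shares were 1.56% (0.427 to 3.95%) with DRD2 and 2.93% (2.42 to 3.51%) without. Both pairs of intervals overlap, and in the deepest of 3 equal groups of excitatory nuclei the shares were 5.08% (2.35 to 9.43%) and 5.17% (4.47 to 5.95%). Inhibitory nuclei with DRD1 held DRD3 in 7.69% (2.88 to 16.0%), against 2.75% (2.27 to 3.30%) of those without. In the deepest excitatory group, 9.56% (5.19 to 15.8%) of nuclei with DRD1 held DRD2, against 4.56% (3.90 to 5.29%) of the rest. These last 2 pairs lie the other way, and their intervals overlap as well. Of the 15 excitatory nuclei with both DRD1 and DRD2, 14 were in E9, where the shares with and without DRD1 were 26.4% and 25.0%. All 6 inhibitory nuclei with both DRD1 and DRD3 were in I1. The class shares thus pool sub-clusters with different levels. In E8, 39.1% (19.7 to 61.5%) of the 23 nuclei with DRD2 held DRD3, against 14.6% (11.9 to 17.7%) of the others. The E8 intervals do not overlap, on 9 nuclei, and depth was not matched in this comparison. In I1, 25.0% (9.77 to 46.7%) of nuclei with DRD1 held DRD3, against 12.4% (10.03 to 15.004%) of the rest, which overlap.

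The other dopamine receptors were rarer still. DRD4 had 72 UMIs, and stood at 0.508 CPM (0.375 to 0.674) in excitatory neurons. Its inhibitory level, 0.403 CPM (0.193 to 0.741), overlaps that. In E12 it stood at 7.67 CPM (3.68 to 14.1) on 10 UMIs, with 5, 2 and 3 in the barcode sets, against a mean of 0.362 in the other excitatory sub-clusters. DRD5, the other D1-like receptor, had 4 UMIs in all, 2 in each neuronal class.

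The genes that make, carry, break down and transduce dopamine were described as lists. Of 55 listed genes, 51 had a row and 46 were measured between the neuronal classes: in excitatory neurons 6 were 2-fold or more higher and 9 as much lower, where the background was 8.62% and 8.36%. The median log2 ratio was 0.06, against −0.10 over the background genes, which are the measured genes kept out of the clustering. SLC18A2, the vesicular monoamine transporter, stood at 3.75 CPM in excitatory against 25.1 in inhibitory neurons (log2 −2.74). GNAS, the stimulatory G protein alpha subunit that D1-like receptors use, stood at 102 against 346 CPM (−1.76), and ADCY8, an adenylyl cyclase, at 72.2 against 247 CPM (−1.77). GNAO1, an inhibitory-class alpha subunit, differed by 0.00. MAOB, which breaks down dopamine, stood at 87.4 against 27.7 CPM (1.66). The dopamine synthesis gene TH and the dopamine transporter gene SLC6A3 had 4 and 5 UMIs in excitatory neurons and 2 each in inhibitory neurons, so neither was measured.

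The same lists were read in the sub-clusters highest for a receptor, against the mean of the other sub-clusters of the class. In E9, 4 of 44 measured list genes were 2-fold or more higher (background 2.88%) and 3 were as much lower (background 5.7%). The median log2 ratio was −0.08, against −0.03 over the background genes. The higher ones were GNAI1, ADCY8, RGS2 and the muscarinic receptor gene CHRM4, and the lower ones were PENK, RARB and STRIP2. GNAI1, an inhibitory G protein subunit of the kind D2-like receptors use, stood at 36.5 CPM in E9 against a mean of 15.5. PPP1R1B, whose product DARPP-32 relays dopamine signals in striatal neurons, stood at 5.02 against 4.76 CPM. Of the genes listed as typical of striatal and intercalated neurons, 1 of 11 was higher and 3 were lower in E9, and 1 of 10 was higher and 0 were lower in E4. In E12, second in DRD1, 3 of 36 list genes were higher (background 5.98%) and 2 were lower (7.65%); the higher ones were ADCY2, RGS9 and RARB.

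In E4, 1 of 43 list genes was higher (background 5.8%) and 5 were lower (6.27%), with a median of 0.12 against 0.11 over the background genes. RGS9, which speeds the shut-off of inhibitory G proteins, stood at 19.6 CPM in E4 against 6.66, and ADCY8 stood at 12.4 against 113 CPM. In I1, 0 of 41 were higher (background 2.14%) and 6 were lower (5.94%): SLC18A2, ARPP21, PDE4B, RGS2, PENK and TAC1. The list median in I1 was −0.17 against −0.04 over the background genes. The level of TAC1, which encodes substance P, was 1.65 CPM in I1 against 27.5. In E8, 1 of 42 was higher (background 2.93%) and 5 were lower (6.29%), with a median of −0.10 against −0.02. The higher one was SLC18A2, at 6.65 CPM in E8 on 40 UMIs against a mean of 3.196; in I1 it stood at 5.19 CPM on 22 UMIs against a mean of 29.8.

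Outside the lists, 5934 genes not used for clustering were ranked by Pearson correlation with each receptor over the 29 sub-clusters. COL19A1, a collagen gene, was most like DRD2 (r = 0.79), at 165 CPM in E4 against a median of 36.1, followed by SGK2 (0.76), EPHA7 (0.71) and CR1 (0.70). No gene was closely like DRD3: ACOX2 led at 0.60, with CIB2 and IGSF10 next. The gene most like DRD1 was the unnamed row ENSMMUG00000041134 (r = 0.89), which is the row directly above DRD1 in the deposited table. ENSMMUG00000039589, 3 rows above, was second (0.80).

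The unnamed row ENSMMUG00000041134 had 1685 UMIs, more than the 354 of DRD1, and was also high in E9, E12 and E14 and low in E1, E3, E4 and E6. It stood at 44.6 CPM in E9, 45.3 in E12 and 45.9 in E14, and between 1.26 and 1.96 in E1, E3, E4 and E6. In excitatory nuclei with its UMI, 5.81% (4.35 to 7.59%) held DRD1, against 1.49% (1.26 to 1.74%) of those without. Inside E9 the shares were 12.7% (8.23 to 18.5%) and 7.81% (5.33 to 10.97%), which overlap. Astrocytes had it at 12.5 CPM and oligodendrocytes at 2.58, on 134 and 2 UMIs, but its astrocyte order was not that of DRD1: A2 stood at 16.8 CPM and A1 at 8.15. SFXN1 and HRH2, the rows just below DRD1, correlated at 0.45 and 0.39. How the authors' counting divided reads between neighbouring rows is not given in the sources used here.

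**Figure D5:**
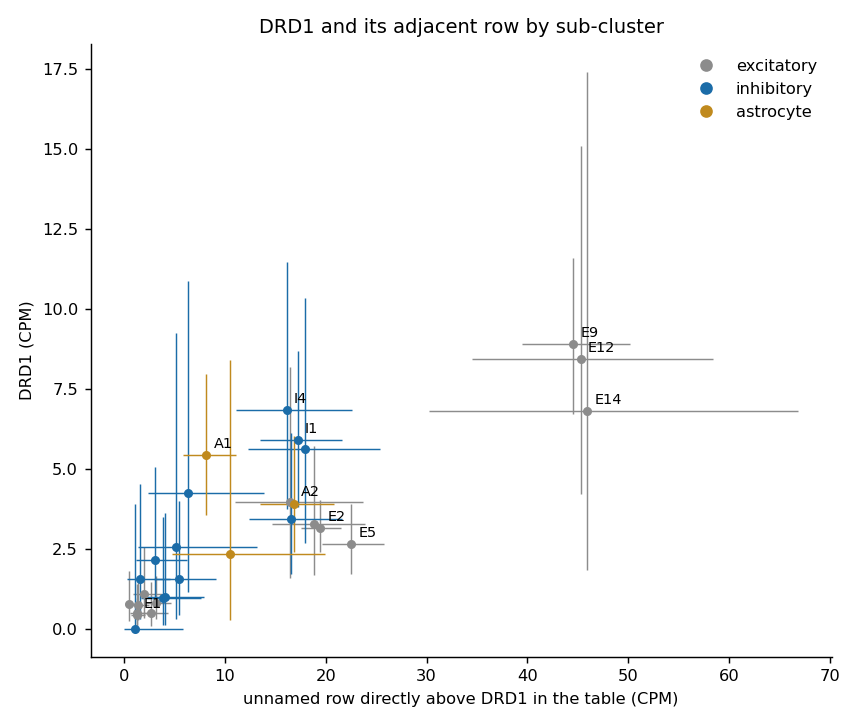
DRD1 level (vertical, CPM) against that of the unnamed row directly above it in the table (horizontal) in the 29 sub-clusters, with exact 95% counting intervals and colours for the class. E9, E12 and E14 lie at the far right, between 44.6 and 45.9 CPM of the unnamed row, and E1 lies at the lower left.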

How the data were processed

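The authors deposited 1 table of raw UMI counts, whole numbers, with genes in rows and nuclei in columns. Per the submitters' processing notes, fastp and Cell Ranger 3.0.0 were used and the build GRCh38 is named, yet 5142 rows carry macaque Ensembl identifiers (800 given symbols from a RefSeq table), so the build is not settled and no coordinates or sequences are given. Per the labels' protocols the kit was version 2, whereas the barcodes begin like those of version 3. Nuclear 3′ counting includes unspliced RNA.

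The receptors and gene lists were chosen with earlier results of these data known. Presumed doublets were the highest Scrublet scores in each barcode set at 0.8% per 1000 nuclei. Counts were scaled to 10000, and 2000 variable genes, 30 components, 15 neighbours and Leiden resolution 0.5 gave the clusters (Python 3.11.15 with scanpy 1.11.5, scikit-learn 1.9.0 and igraph 0.11.9). Classes were named from listed markers: inhibitory at over 300 CPM of GAD1 with GAD2, excitatory at over 75 of SLC17A7, 45 of SV2B and 600 of RBFOX3, and others at a mean log2 marker ratio over 2 against neurons with a lead of at least 1. These thresholds, and a rule leaving clusters with a median doublet score over 0.06 unnamed, were set after seeing the data. Sub-clusters needed 20 nuclei in each barcode set. A gene was measured with at least 50 UMIs on either side and 10 expected on each. Background shares and medians were taken over measured genes kept out of the clustering. Ratios set a count of 0 to 3. The ratio code was tested on simulated data. GNAL, KCNJ9, SIX3 and ISL1 were not analysed here. The rule for named genes was the 3 receptors everywhere, list genes past 2-fold, and the 5 genes of at least 500 UMIs most like each receptor. List genes within 2-fold, TH, SLC6A3, GNAO1 and PPP1R1B, were named after their values were seen. Results for some markers are not reported here.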

Additional observations from a re-analysis of the deposited data

How the results depend on the processing

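Of 110 alternative values, 91 were classed as the same as the reported value and 19 as moved. For levels and ratios, moved means outside the counting interval of the reported value. Counts of list genes have no such interval. The intervals of the astrocyte over pooled glia log2 ratios are wide, on 2 to 5 glial UMIs, and within them DRD2 ranged from −1.46 without barcode set 2 to 0.68 after thinning, DRD3 was −0.19 after thinning and −0.12 without barcode set 1, and DRD1 was 0.96 with at least 1000 detected genes. For the excitatory over inhibitory log2 ratio, averaging CPM over nuclei gave −1.01 for DRD1, −0.24 for DRD2 and −0.91 for DRD3; thinning to 1000 UMIs gave 0.15 for DRD2 and −0.96 for DRD3; leaving out the cluster highest in PROX1 gave −0.14, −1.40 and −0.15. For DRD2, Leiden resolution 1.0 gave −0.92 and typing nuclei one by one −1.33. The highest DRD1 level was 13.9 CPM after thinning, in E14, and the highest DRD3 level was 47.5 CPM at resolution 1.0. DRD1 led in E12 without barcode set 2 and in I4 when averaged over nuclei. List counts with no minimum of UMIs were 9 higher in E9, 4 in E4 and 4 in I1; without barcode sets 1 and 3, E4 had 2 and 3 higher; E9 had 1 lower without barcode set 3, and E4 3 lower without barcode set 2. The cause was not tested. No paired analysis was possible because the labels give 1 group and no test was run. Depth limits DRD1 and DRD3 most: of 29 sub-clusters, 11 had under 5 UMIs of DRD1, 15 of DRD3 and 7 of DRD2.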
